A study of Mus musculus with 2 samples.

Results

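Major histocompatibility complex (MHC) class II transcripts were counted as 10 genes, chosen by name among the 32285 genes of the count tables. They are the chains of the peptide-presenting molecules I-A and I-E (H2-Aa, H2-Ab1 and H2-Eb1), the invariant chain Cd74, the peptide editor H2-DM (H2-DMa, H2-DMb1 and H2-DMb2), its modulator H2-O (H2-Oa and H2-Ob), and the transcriptional coactivator Ciita. The counts came from single-cell RNA sequencing of leukocytes sorted from tumors of AT3, a mouse mammary carcinoma line. Female mice of 6 to 12 weeks were injected with 500000 AT3 cells and tumors were collected on day 30. The control group (labelled WT) was Pgd fl/fl, which carries loxP sites in both copies of Pgd (the gene of 6-phosphogluconate dehydrogenase, an enzyme of the pentose phosphate pathway) and no Cre. The knockout group (labelled 6PGDKO) was Pgd fl/fl LysMCre, in which Cre is expressed from the lysozyme gene Lyz2, active in macrophages, monocytes, neutrophils and some dendritic cells and not in T or B cells.

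Cells of 10 mice were pooled per genotype, and each genotype has 1 library. No difference between the genotypes below therefore has a replicate, and none was tested. Ranges in parentheses are exact 95% intervals for the counting of UMIs. The spread between mice and the spread between cells of a class are not in them, so they are too narrow for classes of few or uneven cells. The libraries held 3728 and 3014 cell barcodes (Pgd fl/fl and Pgd fl/fl LysMCre), of which 3565 and 2798 passed the quality limits, with 27245625 and 28827045 unique molecular identifiers (UMIs, each a counted RNA molecule) over all barcodes. They shared 0 cell barcodes. A sample label names CD45+ cells in one sentence and CD11b+ cells in another, and both libraries held T cells and B cells. The class II genes took 2.98% of the UMIs of kept cells in the Pgd fl/fl library and 2.84% in the Pgd fl/fl LysMCre library.

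MHC class II molecules carry peptides from ingested material to the cell surface, where CD4 T cells read them. Professional antigen-presenting cells (dendritic cells, B cells and activated macrophages) make them under the control of CIITA, which does not bind DNA itself and is recruited by the RFX, CREB and NF-Y factors assembled on the X and Y boxes of class II promoters. The invariant chain fills the groove of newly made molecules, H2-DM exchanges its remnant for peptides in the endosome, and H2-O restrains H2-DM, mainly in B cells.

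Of the 10 genes, 8 lie on chromosome 17 within chr17:34092379-34316674 (224296 bases, GRCm38.p6, the assembly called mm10), and Ciita lies at chr16:10480014-10531064. The stretches below, taken from RefSeq on that build, are shown because the members they belong to share the control elements named above. Each has 70 bases on the strand of its gene, and the capitals mark the Y box core GATTGG and, where it is present, the X box letters AACNNATGA.

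H2-Eb1: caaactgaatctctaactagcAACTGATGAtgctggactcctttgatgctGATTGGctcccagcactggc

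H2-DMb1: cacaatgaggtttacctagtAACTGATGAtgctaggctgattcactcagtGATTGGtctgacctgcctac

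H2-DMb2: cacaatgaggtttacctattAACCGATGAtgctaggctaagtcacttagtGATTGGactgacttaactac

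H2-Ob: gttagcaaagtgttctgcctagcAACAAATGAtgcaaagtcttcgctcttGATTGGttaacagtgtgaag

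H2-Aa: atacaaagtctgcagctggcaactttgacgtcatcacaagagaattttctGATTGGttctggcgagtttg

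H2-Oa: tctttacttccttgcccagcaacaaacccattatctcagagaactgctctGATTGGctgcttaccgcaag

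These stretches lie at chr17:34305757-34305826 (plus strand, H2-Eb1), chr17:34153079-34153148 (plus, H2-DMb1), chr17:34145108-34145177 (plus, H2-DMb2), chr17:34238797-34238866 (plus, H2-Ob), chr17:34287853-34287922 (minus, H2-Aa) and chr17:34092285-34092354 (plus, H2-Oa). The X and Y letters are 20 bases apart in H2-Eb1, 21 in H2-DMb1 and H2-DMb2, and 18 in H2-Ob. The Y box ends 54 bases before the start site in H2-Eb1, 56 in H2-DMb1, 85 in H2-DMb2, 52 in H2-Ob, 43 in H2-Aa and 38 in H2-Oa. All 7 members with a promoter window (250 bases before to 50 after the start, 8 windows) held the Y box core on the strand of the gene, H2-DMa in its second window only. Searched on both strands, the Y box core was in 16.1% of all 32851 windows and the X box letters in 2.85%, and the matches shown do not overlap each other. X letters followed by the Y core within 40 bases on the strand of the gene were in 9 windows of 32851 (0.0274%), and 4 of those 9 belong to the members shown with both. The X letters were written after these promoters had been read, so that count is a description of them.

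Cells were placed in classes by lists of marker genes that hold no class II gene. The classes of antigen-presenting cells were macrophages (619 cells of the control library and 622 of the knockout library), classical monocytes (20 and 43), conventional type 1 dendritic cells or cDC1 (25 and 39), Cd209a dendritic-like cells (10 and 26), mature migratory dendritic cells (50 and 69), cells with UMIs of both Cd207 and Epcam (68 and 93) and B cells (549 and 33). Non-classical monocytes numbered 8 and 17, plasmacytoid dendritic cells 3 and 5, and 771 of the 6363 kept cells stayed unassigned. The Cd207+ Epcam+ cells were sought as Langerhans-like cells, but only 2 markers define them, so they are called by those markers; H2-M5, Epcam and Cldn1 led the main cluster that held them. The Cd209a dendritic-like class is the least certain: 8 of its 10 control cells and all 26 knockout cells lay near the limit of the gate, and of all its cells 18 fell in a classical monocyte cluster and 15 in a Cd207+ Epcam+ cluster. Cells with UMIs of 2 or more T or B cell markers made up 13.1% of control macrophages and 20.9% of knockout macrophages.

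Pgd, the targeted gene, had 823 UMIs in Pgd fl/fl macrophages and 227 in Pgd fl/fl LysMCre macrophages, a log2 ratio of -1.95 (-2.17 to -1.74). All log2 ratios here are Pgd fl/fl LysMCre over Pgd fl/fl, computed from the UMIs of a gene per 1000000 UMIs of the class (counts per 1000000, CPM). In classical monocytes Pgd had 28 and 6 UMIs (-3.19, -4.75 to -1.89). T cells carried 351 and 320 (0.0, -0.22 to 0.22). The Cd207+ Epcam+ cells had 40 and 42 UMIs (-0.58, -1.24 to 0.08), and cDC1 had 11 and 20 (0.29, -0.84 to 1.49). Neutrophils had 8 and 4 UMIs (-1.76, -3.94 to 0.14) and B cells 57 and 1 (-2.07, -7.39 to 0.47), low ratios on few UMIs. Intervals wholly under 0 were found in macrophages and monocytes only.

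The summed class II level was highest in macrophages of the control tumors. Of single genes, Cd74 was highest there, and H2-Aa and H2-Eb1 were too, with intervals that overlapped those of Cd209a dendritic-like cells. The other members were highest in other classes. Summed over the 10 genes, Pgd fl/fl macrophages held 65938 CPM, above Cd209a dendritic-like cells at 61571, Cd207+ Epcam+ cells at 61219 and cDC1 at 49246. B cells (20271) and mature migratory dendritic cells (20246) had overlapping intervals and lay well under those, and classical monocytes had 9692. In the Pgd fl/fl LysMCre library the order began with Cd207+ Epcam+ cells (54838), Cd209a dendritic-like cells (52036) and cDC1 (46901), and macrophages were the fourth at 46249.8, with an interval that overlapped that of cDC1. Mature migratory dendritic cells (25498), B cells (21485), classical monocytes (15855) and non-classical monocytes (11989.9) followed.

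Class II UMIs were also read in cells that should make few of them. Neutrophils held 1313 and 1739 CPM, T cells 5116 and 9759, and natural killer (NK) cells, of which there were 29 and 47, 10921 and 2726. A median T cell carried 5.13 class II UMIs per 10000 of its own in the control library and 6.38 in the knockout library, but the 90th percentile was 22.5 in the first and 211 in the second. T cells with UMIs of 2 or more macrophage, B cell or epithelial markers held 90.4% and 87.1% of the class II UMIs of all T cells. Without them T cells stood at 771 and 2759 CPM and NK cells at 6855 and 516. Sums over a class can thus be set by a few cells, and a member at the T cell level is not read as expression here.

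**Figure D1:**
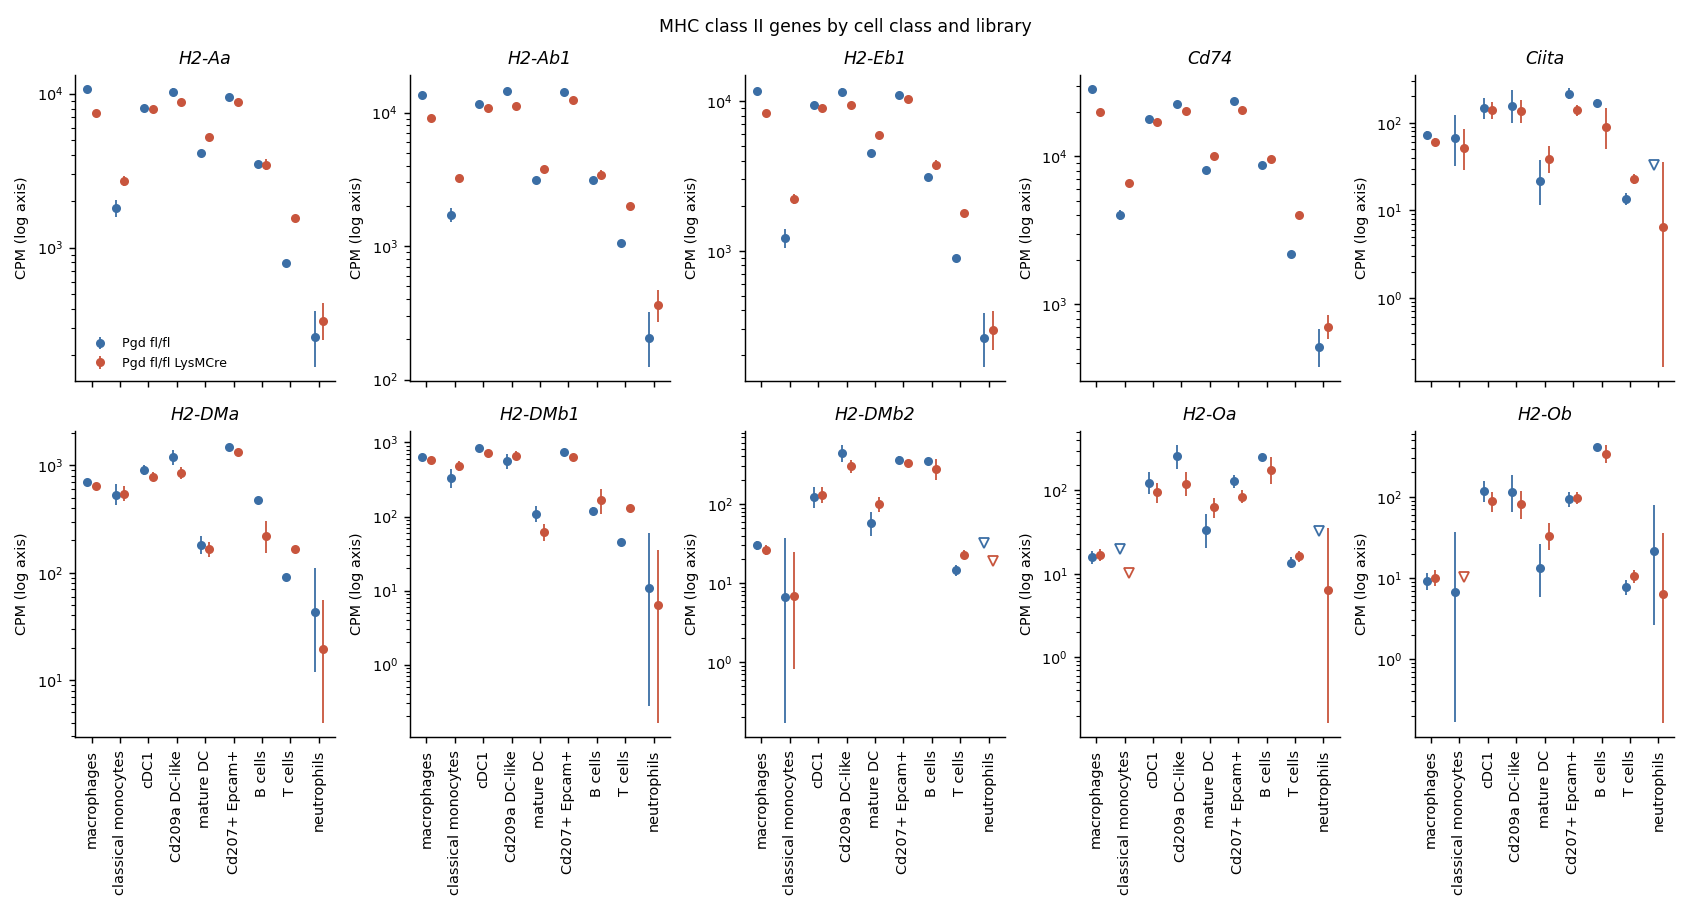
CPM of each of the 10 genes (log axis) in 9 cell classes, blue for the Pgd fl/fl library and red for the Pgd fl/fl LysMCre library. Bars are exact 95% intervals for counting error, and open triangles mark classes with no UMI, drawn at the level of 3 UMIs. H2-Aa, H2-Ab1, H2-Eb1 and Cd74 are lower in red than in blue in macrophages and higher in red in classical monocytes.

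In macrophages, the genes that make up the presented molecule and its chaperone were lower in Pgd fl/fl LysMCre, whereas the genes of peptide editing were near the control level. The I-A alpha chain H2-Aa had 10634 CPM in control and 7439 in knockout macrophages, a log2 ratio of -0.52 (-0.53 to -0.50). Its partner H2-Ab1 had 13502 and 9121 (-0.57), and the I-E beta chain H2-Eb1 had 11649 and 8391 (-0.47). Cd74, the invariant chain, went from 28677 to 19959 (-0.52). The 4 genes thus lay between 0.676 and 0.72 of the control level.

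H2-DMa, a chain of the peptide editor, had 704 CPM in Pgd fl/fl macrophages and 639.7 in Pgd fl/fl LysMCre macrophages (-0.14, -0.19 to -0.08). H2-DMb1, its main partner in these cells, had 643 and 587 (-0.13, -0.19 to -0.07). H2-DMb2 was scarce at 30.1 and 26.4 (-0.19, -0.46 to 0.09). H2-DMb1 and H2-DMb2 are close copies, and reads that match both could be lost or split between them in counting. H2-Oa (15.8 and 17) and H2-Ob (9.13 and 10.1) were close to the T cell levels of 13.6 and 16.3 for H2-Oa and 7.75 and 10.6 for H2-Ob.

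Ciita, the coactivator, had 73.2 CPM in Pgd fl/fl macrophages and 60.6 in Pgd fl/fl LysMCre macrophages, 545 and 481 UMIs, with a log2 ratio of -0.27 (-0.45 to -0.09). With every cell thinned to 2000 UMIs, 12% (9.51 to 14.8) and 10.2% (7.93 to 12.9) of macrophages had a Ciita UMI, against 0.794% and 2.27% of T cells. Without thinning the shares were 48.0% and 38.4% of macrophages (median 11822 and 12344.5 UMIs per cell) and 3.87% and 9.09% of T cells (5152.5 and 6200). Per 1000 Cd74 UMIs, macrophages held 2.55 Ciita UMIs (2.34 to 2.78) in Pgd fl/fl and 3.04 (2.77 to 3.32) in Pgd fl/fl LysMCre, so Cd74 differed between the libraries by more than Ciita.

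A gene was counted as past the fold at a log2 ratio of at least 0.32 or at most -0.32, with at least 50 UMIs over both libraries. In this way 4 of the 10 members were lower past the fold in Pgd fl/fl LysMCre macrophages (H2-Aa, H2-Ab1, H2-Eb1 and Cd74) and 0 were higher. Of all 9844 genes with that many UMIs, 9.49% were lower and 14.0% higher. The members' median log2 ratio was -0.23 and that of all genes 0.04.

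**Figure D2:**
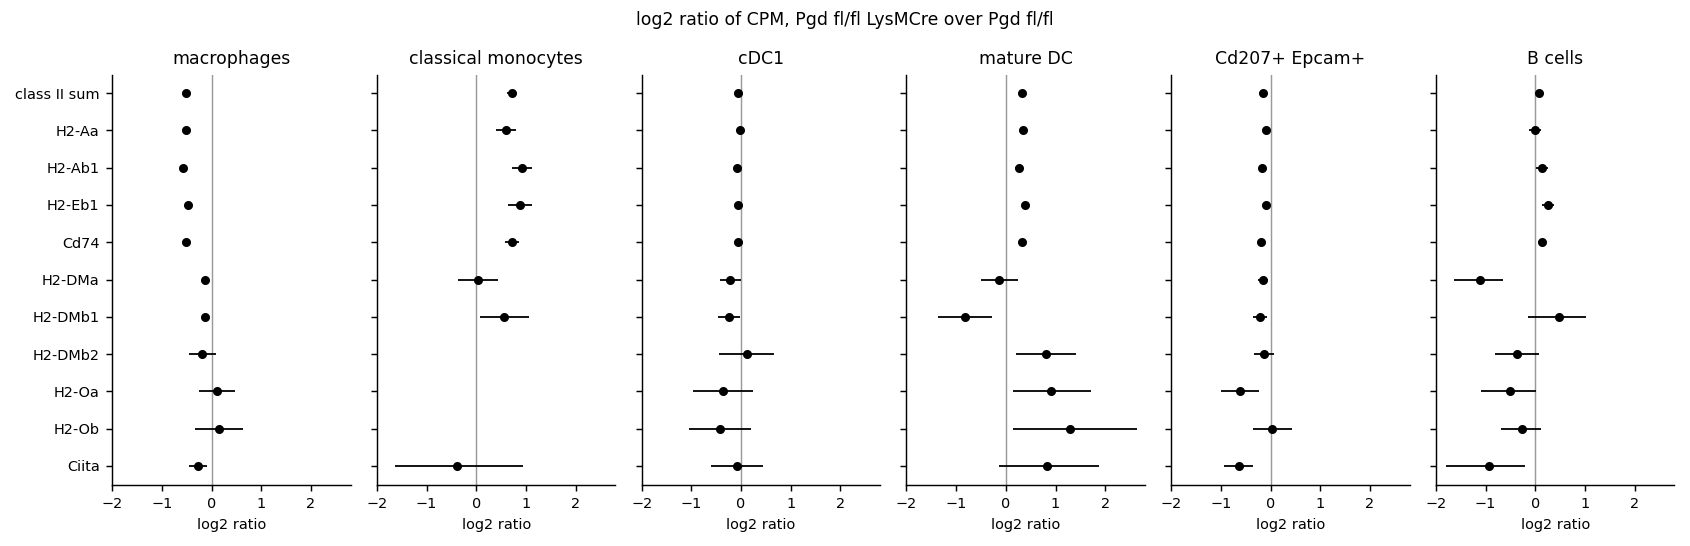
log2 ratio of CPM, Pgd fl/fl LysMCre over Pgd fl/fl, for the summed class II genes and each gene with at least 20 UMIs over both libraries, in 6 cell classes. Bars are exact 95% intervals for counting error and the grey line is at 0. In macrophages the 3 chains and Cd74 sit near -0.5 while H2-DMa and H2-DMb1 sit near -0.13.

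Per cell, the level was lower at each percentile computed, and by the largest factor at the low end. A median Pgd fl/fl macrophage carried 674 class II UMIs per 10000, with 329 at the 10th percentile and 1030 at the 90th. A median Pgd fl/fl LysMCre macrophage carried 458, with 154 and 797 at those percentiles. The 2 distributions overlapped, and 0.0% of macrophages in either library lacked class II UMIs. Counts of T cell markers moved with the genotype, at 182 CPM in Pgd fl/fl macrophages and 309 in Pgd fl/fl LysMCre macrophages, with all 8 markers found in both. Without the macrophages holding 2 or more T or B cell markers, the log2 ratio of the sum was -0.49 (-0.49 to -0.48).

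**Figure D3:**
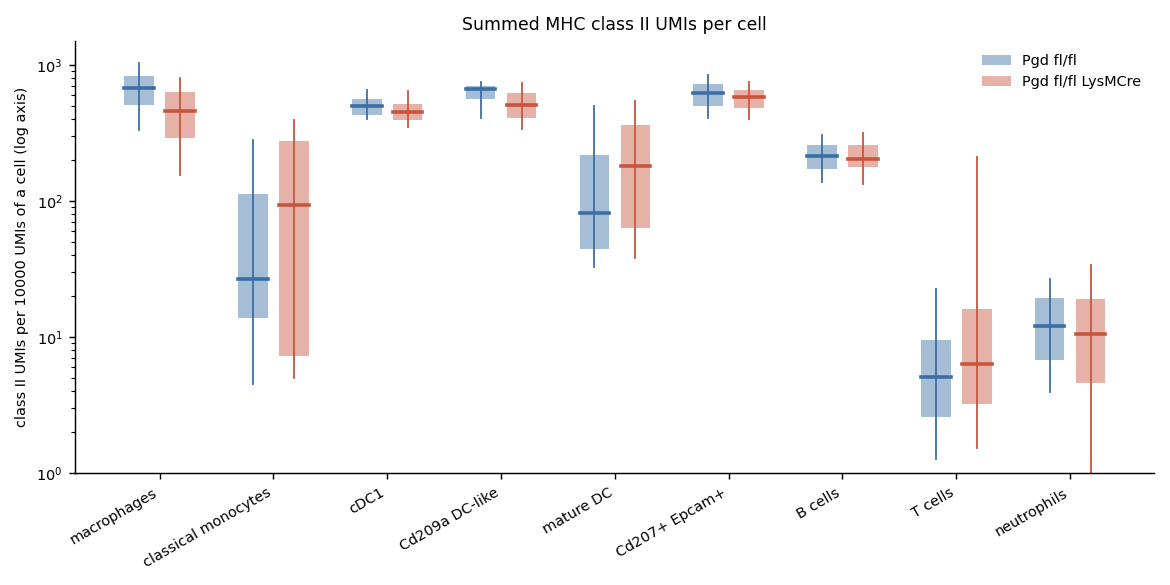
Class II UMIs per 10000 UMIs of a cell (log axis) by class and library, with the median as a line, the middle of the distribution from the 25th to the 75th percentile as a box and the 10th to 90th percentiles as whiskers, cut at 1. The macrophage box lies lower in red (Pgd fl/fl LysMCre) than in blue (Pgd fl/fl), and the T cell whisker reaches 211 in red.

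Macrophages were then split by whether a cell, thinned to 2000 UMIs, held a UMI of 1 of 9 marker genes. The summed class II level was lower in Pgd fl/fl LysMCre in all 18 strata, with log2 ratios from -0.27 to -1.0. These strata split the same cells 9 times, so they overlap and are not separate results. Cells without Folr2, for example, were 99.7% and 99.0% of the thinned macrophages, and those with it numbered 2 and 6. The smallest difference was in cells with Ccr2, a receptor of recently recruited monocytes, at 56313 and 46735 CPM (34 and 71 cells). The largest was in cells with Gpnmb, a gene of lipid-laden macrophages, at 59466 and 29636 (21 and 28 cells). Cells with Mrc1, the mannose receptor, had 64005 and 39366 (-0.7), and those with the interferon-induced chemokine Cxcl9 had the highest levels in both libraries, 70766 and 53714 (-0.4). Cxcl9 was found in 39.4% of thinned Pgd fl/fl macrophages and 26.6% of Pgd fl/fl LysMCre macrophages, and Ccr2 in 5.58% and 11.7%.

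Clusters made without the class II genes gave lower levels in 4 of the 5 named for macrophages. The Mmp12 and Vcam1 cluster (269 and 191 cells) had a log2 ratio of -0.47, the Ccl12 and C1qb cluster (205 and 193) -0.49, the cycling cluster (47 and 42) -0.67 and the Ms4a7 and Apoe cluster (51 and 51) -0.75. In the cluster led by Retnla, Fn1 and Lyz1 the level was low in both libraries, 24254 and 26513 CPM (0.13, 0.06 to 0.19). That cluster held 14 control and 51 knockout cells. The share of macrophages that fell in it was 1.45% and 4.66%, and in the Ly6i and Plac8 cluster 3.55% and 10.3%. An unnamed cluster of shallow cells led by Gm26917, Hk2 and P2rx4 (54 and 56 cells) also had the higher level in Pgd fl/fl LysMCre, 36993 and 50554 CPM (0.45, 0.40 to 0.50).

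**Figure D4:**
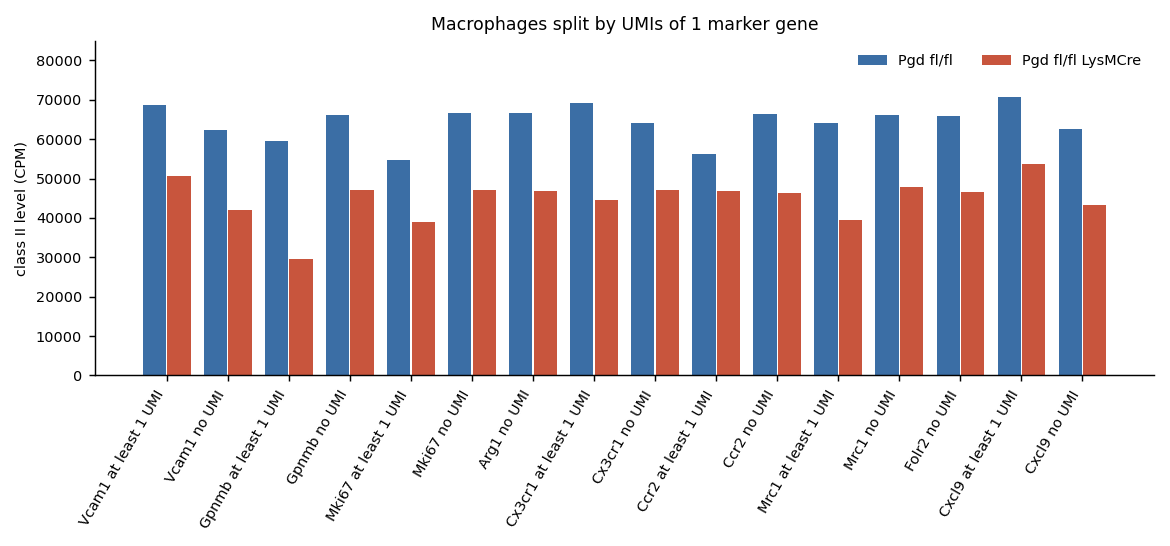
Summed class II CPM (linear axis from 0) in macrophages with or without a UMI of a marker gene after thinning, for the 16 strata with at least 20 cells in each library. Every red bar (Pgd fl/fl LysMCre) is lower than the blue bar (Pgd fl/fl) beside it.

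Classical monocytes, the blood-derived precursors of many tumor macrophages, differed in the other direction, on few cells. Their summed level was 9692 CPM in Pgd fl/fl (20 cells, 1448 class II UMIs) and 15855 in Pgd fl/fl LysMCre (43 cells, 4620 UMIs), a log2 ratio of 0.71 (0.62 to 0.80). H2-Ab1 had 1714 and 3216 CPM (0.91), H2-Eb1 1218 and 2234 (0.87), Cd74 4023 and 6617 (0.72) and H2-Aa 1794 and 2701 (0.59). H2-DMa stood at 535 and 546 (0.03, -0.37 to 0.43). Ciita had 10 and 15 UMIs (-0.38, -1.63 to 0.94). The control sum is in the range of those of T and NK cells, and the knockout sum is above them. The T cell sum was also higher in Pgd fl/fl LysMCre (0.93), and the part of RNA from other cells in the difference was not tested. Thinned to 2000 UMIs, 80.0% (56.3 to 94.3) and 72.1% (56.3 to 84.7) of classical monocytes had a Cd74 UMI, against 39.5% and 53.5% of T cells.

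The monocytes were uneven among themselves. A median cell carried 26.9 class II UMIs per 10000 in the control library and 92.8 in the knockout library, with 10th to 90th percentiles of 4.55 to 282 and 5.04 to 391. Cells that fell in the cluster led by Ly6i, Plac8 and Ifitm3 had 13186 (12 cells) and 24165 (23 cells) CPM. Those in the cluster led by Ace, Chil3 and Ifitm6 had 4429 (8 cells) and 6419.9 (20 cells). Whole clusters also include cells that other marker lists claimed or that no list claimed. Together these clusters held 63 classical monocytes, 89 macrophages, 74 T cells and 144 unassigned cells, among others. Taken whole, the first went the other way, 42956 and 37951 (-0.18, 99 and 270 cells), and the second did not, 7003 and 10500 (0.58, 22 and 45 cells). The macrophages in the first (22 and 64 cells) had 51501 and 42627 CPM. With both monocyte classes pooled, 5 of the 6 members with enough UMIs were higher past the fold and 0 were lower, against 19.0% and 17.3% of all 1551 genes. H2-DMb2, H2-Oa, H2-Ob and Ciita had too few UMIs there.

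Dendritic cells of the cDC1 type, which take up dead tumor cells and present their antigens, had sums that differed little between the libraries. The sum was 49246 and 46901 CPM (-0.07, -0.10 to -0.04). H2-Aa had 8112 and 7983, H2-Ab1 11483 and 10869, H2-Eb1 9404 and 9009.8, Cd74 17984 and 17094, and Ciita 147 and 138 (-0.09, -0.61 to 0.44). Of the editing genes, 2 were lower by more, H2-DMa at 913 and 782 (-0.22, -0.43 to -0.01) and H2-DMb1 at 841 and 710.4 (-0.24, -0.46 to -0.02). H2-DMb2 was not lower, with 46 and 74 UMIs (0.11, -0.44 to 0.67). H2-Oa (46 and 53 UMIs, -0.37, -0.97 to 0.23) and H2-Ob (44 and 49 UMIs, -0.42, -1.04 to 0.20) were the 2 of 10 members lower past the fold, and 0 were higher, beside 12.9% and 27.0% of all 2264 genes. Cd209a dendritic-like cells, of which the Pgd fl/fl library had 10, stood at 61571 and 52036, with a median of 666 and 502 per 10000 in a cell.

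Mature migratory dendritic cells, which have switched from taking up antigen to displaying it in lymph nodes, had lower class II transcript levels than cDC1 and Cd209a dendritic-like cells and differed upward in Pgd fl/fl LysMCre. The sum was 20246 and 25498 CPM (0.33, 0.30 to 0.36), and a median cell carried 81.9 and 181 per 10000. H2-Aa had 4108 and 5248 (0.35), H2-Eb1 4531 and 5907 (0.38), Cd74 8076 and 10123 (0.33) and H2-Ab1 3115 and 3759 (0.27). The cluster of these cells (58 and 92 cells) had a smaller difference, 20152 and 21774 (0.11, 0.08 to 0.14). Of 8 members with enough UMIs, 5 were higher past the fold and 1 was lower, against 18.9% and 15.6% of all 3171 genes, and H2-Ob and Ciita had too few.

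The lower member was H2-DMb1, with 109 and 61.7 CPM (65 and 54 UMIs, -0.82, -1.37 to -0.28). T cells held 45.8 and 132 CPM of H2-DMb1, so its knockout value here is not read as expression. H2-DMb2, its close copy, had 57.0 and 99.4 (34 and 87 UMIs, 0.80, 0.21 to 1.42). H2-DMa had 181 and 166 (-0.13), against 91.7 and 166 in T cells, so its knockout value is not read either. Plasmacytoid dendritic cells, which make type I interferon, stood at 4087 and 17930 CPM from 3 and 5 cells. Over all dendritic cells, these included, 0 of 10 members passed the fold in either direction, where 12.1% of all 5409 genes were lower and 21.4% higher.

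Cd207+ Epcam+ cells had the highest levels of H2-DMa and Ciita of all classes in Pgd fl/fl, for Ciita with an interval that overlapped that of B cells. H2-DMa had 1484 CPM in the control library and 1328 in the knockout library, and the sum had 61219 and 54838 (-0.16, -0.17 to -0.14). Their H2-Ab1 stood at 14128 and 12436 (-0.18), Cd74 at 23684 and 20711 (-0.19), H2-Aa at 9478 and 8829.6 (-0.10) and H2-Eb1 at 10907 and 10250.3 (-0.09). Ciita had 215 and 138 (200 and 202 UMIs, -0.64, -0.93 to -0.35), and H2-Oa had 129 and 84.1 (120 and 123 UMIs, -0.61, -0.99 to -0.24). Those 2 members were lower past the fold and 0 were higher, beside 16.3% and 17.7% of all 5068 genes. Ciita differed by more than the 3 chains and Cd74 in these cells, and in macrophages by less than those 4 genes. Thinned to 2000 UMIs, the ratio of Ciita in Cd207+ Epcam+ cells was -0.22 (-0.98 to 0.54), within the fold, and by clusters it was -0.34. Macrophage markers also differed in this class, at 3548 and 1842 CPM over the 8 markers, and their part in the result was not tested.

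B cells had the highest level of H2-Ob of all classes in both libraries. H2-Ob had 412 CPM in Pgd fl/fl B cells and 342 in Pgd fl/fl LysMCre B cells, and H2-Oa 252 and 177, beside 257 and 120.3 in Cd209a dendritic-like cells. The Pgd fl/fl LysMCre library held 33 B cells with 3646 class II UMIs, so its values are coarse. The sum stood at 20271 and 21485 (0.08, 0.03 to 0.13), and a median cell carried 213 and 202 per 10000. H2-DMa had 473 and 218 (1092 and 37 UMIs, -1.12, -1.63 to -0.64) and Ciita 169 and 88.4 (391 and 15 UMIs, -0.94, -1.79 to -0.20). Past the fold 4 members were lower (H2-DMa, H2-DMb2, H2-Oa and Ciita) and 1 was higher (H2-DMb1), beside 30.4% and 31.7% of all 4705 genes. The 8 macrophage markers stood at 795 CPM in Pgd fl/fl B cells and 5899 in Pgd fl/fl LysMCre B cells, and cells with markers of another lineage held 29.6% and 60.1% of the class II UMIs. Without such cells the log2 ratio of the sum was -0.02 (-0.10 to 0.05), that of H2-DMb1 turned to -0.65 (-2.29 to 0.60) and that of H2-DMb2 to 0.12 (-0.46 to 0.65), so no direction is read for either.

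Ratios between members within a class do not depend on the depth of the library, and they set the classes apart. They were taken from UMIs summed over the cells of a class, so cells with more UMIs weigh more. In macrophages H2-DM transcripts made up 3.71% (3.64 to 3.78) of H2-DM plus the 3 chains in Pgd fl/fl and 4.78% (4.69 to 4.87) in Pgd fl/fl LysMCre. Cd74 kept its share of Cd74 plus the 3 chains, 44.5% and 44.4%, which was near that of B cells (47.4% and 47.5%) and above that of cDC1 (38.3% and 38.0%). H2-Ab1 held 55.9% and 55.1% of H2-Aa plus H2-Ab1 in macrophages, 58.6% and 57.7% in cDC1, but 43.1% and 41.7% in mature migratory dendritic cells. UMIs count molecules and are not divided by length, so these shares are of molecules.

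H2-O made up 41.2% and 44.0% of H2-O plus H2-DM in B cells, 11.3% and 10.1% in cDC1 and 1.78% and 2.12% in macrophages. H2-Oa and H2-Ob of macrophages were close to the T cell levels, so their share there is not read as expression. In mature migratory dendritic cells the share was 11.9% (8.07 to 16.8) in Pgd fl/fl and 22.7% (18.5 to 27.3) in Pgd fl/fl LysMCre. In those Pgd fl/fl LysMCre cells H2-DMa and H2-DMb1 stood at or under the T cell level. The H2-DM beta chain also varied by class. H2-DMb2 held 74.8% and 62.7% of the H2-DMb1 and H2-DMb2 UMIs in B cells, 33.0% and 34.2% in Cd207+ Epcam+ cells, 12.7% and 15.7% in cDC1 and 4.46% and 4.31% in macrophages. In Pgd fl/fl LysMCre the H2-DMb2 level of macrophages (26.4 CPM, 23.0 to 30.3) overlapped that of T cells (22.9, 20.1 to 25.9). The H2-DMb2 share also differed between the libraries in mature migratory dendritic cells, at 34.3% (25.1 to 44.6) and 61.7% (53.1 to 69.8). There H2-DMb1 was under the T cell level in Pgd fl/fl LysMCre. In Cd209a dendritic-like cells the share was 44.3% (35.9 to 52.9) and 31.2% (26.1 to 36.5), with overlapping intervals.

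**Figure D5:**
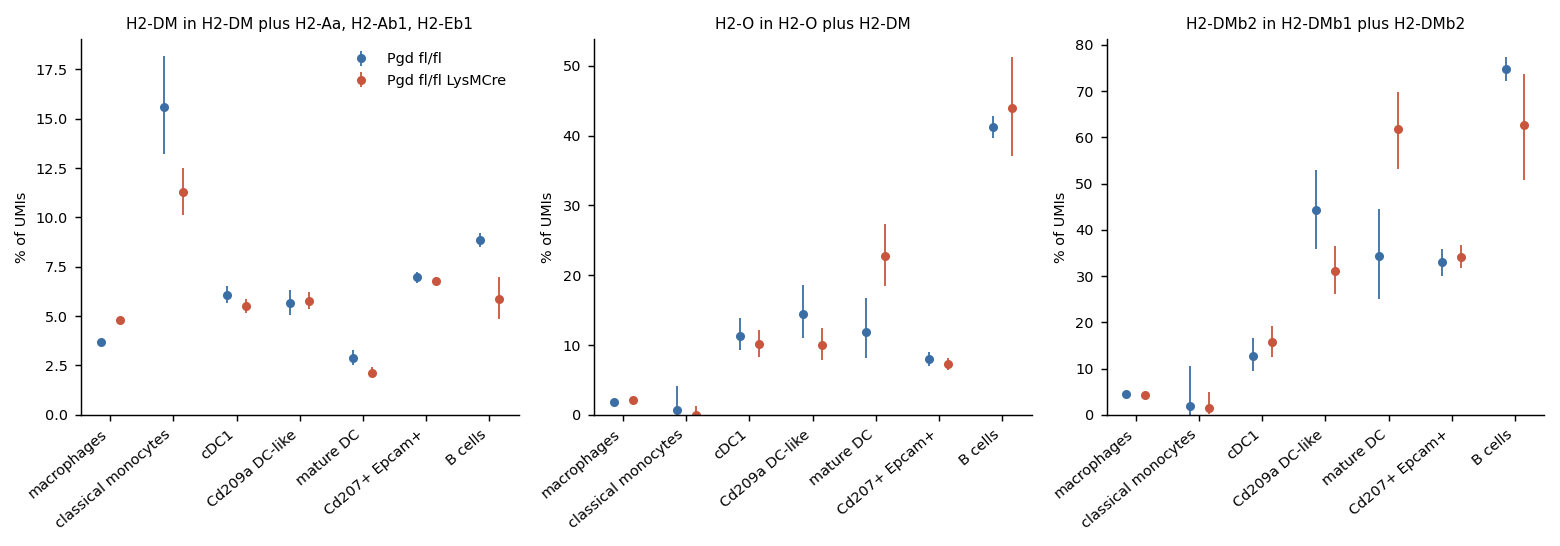
Share of UMIs (%) of H2-DM in H2-DM plus the 3 chains (left), of H2-O in H2-O plus H2-DM (middle) and of H2-DMb2 in H2-DMb1 plus H2-DMb2 (right), by class and library, with exact 95% binomial intervals. B cells stand apart at 41.2% and 44.0% in the middle panel, and macrophages sit under 5% in the right panel.

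Of the listed regulators of class II genes or proteins and of cytokine signaling, 2 of 20 were lower past the fold in Pgd fl/fl LysMCre macrophages and 2 were higher. That is near the 9.49% and 14.0% of all genes, with a median log2 ratio of -0.04 against 0.04 for all genes. Rfx5, a subunit of the RFX factor on the X box, had 67 and 46 UMIs (-0.63, -1.21 to -0.07), whereas its partners Rfxap (0.03) and Rfxank (-0.14) and the NF-Y subunits Nfya (-0.06), Nfyb (-0.04) and Nfyc (-0.16) stayed within the fold. Socs3, an inhibitor of cytokine signaling, had 2921 and 2105 UMIs (-0.56), and Socs1, an inhibitor of interferon signaling, had 166 and 276 (0.64). Irf1, which drives Ciita after interferon-gamma, had 651 and 888 UMIs (0.36, 0.21 to 0.50).

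Among 9 genes of antigen processing, 1 was lower and 1 was higher in macrophages. Ctss, the protease that trims the invariant chain, had 5285 CPM in control and 3677 in knockout macrophages, and its log2 ratio of -0.52 (-0.55 to -0.50) was that of Cd74. Ctsd, an aspartic protease of lysosomes, had 863 and 1172 (0.44). Of 3 costimulation genes Cd80 was lower (-0.36, -0.61 to -0.11), Cd40 stood at -0.27 and Cd86 at 0.06. The class I genes were within the fold, 0 of 7 in each direction, with B2m at -0.11, H2-K1 at -0.11 and a median of -0.13. The minor class II gene H2-Eb2 had 34 and 18 UMIs (-1.01, -1.92 to -0.14).

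Of 9 processing genes in Cd207+ Epcam+ cells 0 were higher past the fold. Those lower were Lgmn (-0.77), Ctsb (-0.59), Ctsl (-0.53), Ctsd (-0.53), Ctsz (-0.49), Lamp1 (-0.38) and, at the limit, Ctss (-0.32, 0.799 of the control level). The median of the 9 was -0.49, and of all genes 16.3% were lower and 17.7% higher. Macrophages express these genes too, and the macrophage markers were lower in the same cells (3548 and 1842 CPM). Their part in these ratios was not tested. Of 17 regulators with enough UMIs 6 were lower and 1 higher there, the lowest being the interleukin-10 receptor chain Il10ra (105 and 81 UMIs, -1.02). In dendritic cells March1 (-1.04) and, at the limit, Irf8 (1432 and 1839 UMIs, -0.32, 0.799 of the control level) were lower past the fold. Of the 17 regulators tested there, 4 were higher. The shares of all genes were 12.1% lower and 21.4% higher. In monocytes 3 of 10 were lower and 1 was higher, beside 17.3% and 19.0%.

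The genes whose levels ran most like the class II sum were sought over 19 sums of a class in a library. These points share libraries and depths, so the correlations describe this table only. The 4 members that make up nearly all of the sum ran with it by construction, Cd74 (Pearson r = 0.998), H2-Aa (0.995), H2-Eb1 (0.993) and H2-Ab1 (0.992). They were followed by H2-DMa (0.908), H2-DMb1 (0.899) and Ciita (0.889), with H2-DMb2 (0.759), H2-Oa (0.642) and H2-Ob (0.487) last. Outside the members the 10 highest were Mtss1 (0.92), Cd86 (0.912), Sh3pxd2b (0.91), Mtpn, Ifi30 (0.898), Fcgrt, Epb41l2, Gdi2, Tbc1d9 and Zfp385a (0.877). Ifi30 is a thiol reductase that unfolds antigens in the endosome, and Cd86 is a ligand for CD28 on T cells.

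Over the 1241 macrophages, the gene outside the members most like the sum was Ctss, with r = 0.718 in the control library and 0.506 in the knockout library. Cst3, an inhibitor of cathepsins, followed (0.597 and 0.415), and then C1qa (0.547 and 0.313), C1qb, Tmem176a, Cfb, C1qc, Ctsh, H2-D1 and Dnase1l3. Cells of a library share its depth, and free RNA can be common to both libraries, whose cells were loaded together. Of these, Ctss (-0.52) and Cst3 (3737 and 2556 CPM, -0.55) differed between the libraries by as much as the class II chains, while C1qa (-0.24) and C1qb (-0.10) did so by less. The lowest correlations were with Lgals1 (-0.418 and -0.409), Anxa2, Capg, Ahnak and S100a10. Those were higher in Pgd fl/fl LysMCre macrophages, with Lgals1 at 207 and 433 CPM (1.06) and Ahnak at 71.4 and 144 (1.01). Ciita itself followed the sum weakly from cell to cell (0.089 and 0.153), at 545 and 481 UMIs over all macrophages.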

How the data were processed

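The authors sorted live CD45+ cells, tagged them with oligonucleotides, loaded them together on a 10x Chromium, and, per the labels' processing notes, used Cell Ranger 6.1.2 and the mm10 build. The deposited values are raw counts of UMIs per gene and cell, with 1 table per genotype. Kept cells had 500 to 7500 genes and at most 15% mitochondrial UMIs, which left more cells than the methods state for either genotype. A class needed UMIs of at least 50% of its markers (75% for macrophages) and a margin of 12.5 percentage points over the next list. No doublet caller was run. UMIs were summed per class and library, scaled to counts per 1000000 (CPM), and given exact Poisson, conditional or Clopper-Pearson intervals. No test between genotypes was possible with 1 library each. Named genes were the 10 members, fixed pathway lists (in macrophages those past a log2 ratio of 0.32) and the 10 genes most like the sum. The members and lists were chosen with earlier results of these data known. Ratios were tested on simulated data. Alternatives were other gates, Leiden clusters, thinning to 2000 UMIs, other scalings (edgeR 4.0.16, DESeq2 1.42.0), leaving out cells with markers of another lineage, equal weight per cell and, chosen after seeing the data, cells with at least 90% of their oligonucleotide UMIs from their own library (medians 89.4% and 94.3%). Python 3.11.15 with numpy 2.4.6, scipy 1.17.1, leidenalg 0.10.2 and R 4.3.3 were used. Promoter windows were those of RefSeq on GRCm38.p6.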

Additional observations from a re-analysis of the deposited data

Results flagged for a closer look

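Over the classes of antigen-presenting cells, in some genes the genotypes differed in opposite directions in different cell classes, with intervals for counting error on opposite sides of 0. With 1 library per genotype, the difference between the classes was not tested. The summed class II level had a log2 ratio of -0.51 in macrophages and 0.71 in classical monocytes. Among those classes, the same pair held the lowest and the highest ratio of H2-Aa (-0.52 and 0.59), H2-Ab1 (-0.57 and 0.91), H2-Eb1 (-0.47 and 0.87) and Cd74 (-0.52 and 0.72). H2-DMb1 had its lowest ratio of those classes in mature migratory dendritic cells (-0.82), where its knockout level was under that of T cells. Its highest was in classical monocytes (0.56). H2-Oa was lowest in Cd207+ Epcam+ cells (-0.61) and highest in mature migratory dendritic cells (0.91), from 20 and 55 UMIs in the latter. T cells (0.93) and NK cells (-2.0), which are not among these classes, had sums farther apart than those. The classical monocytes number 20 and 43 cells, and their sum changed direction when clusters, which also held cells of other classes, replaced marker lists.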

How the results depend on the processing

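In macrophages the log2 ratio of the summed class II genes stayed between -0.49 and -0.55 under all 10 alternatives: -0.49 with the stricter gate and without mixed cells (those with 2 or more markers of another lineage), -0.52 thinned and with at least 90% own oligonucleotide, -0.54 with a total without class II UMIs, DESeq2 size factors or equal weight per cell, and -0.55 by clusters and with TMM factors. In monocytes it was 0.49 with the stricter gate, 0.86 with equal weight and -0.11 by clusters, which reversed it. By clusters H2-Aa (-0.09), H2-Ab1 (-0.08), H2-Eb1 (-0.16) and Cd74 (-0.11) reversed too. Those clusters also held macrophages, T cells and unassigned cells. The cause was not tested. In dendritic cells the ratio of 0.08 became -0.01 by clusters (Cd74 -0.0049), 0.13 thinned (H2-DMa 0.03) and with equal weight, 0.04 with TMM, 0.03 with DESeq2, 0.10 without mixed cells and 0.06 with own oligonucleotide. In B cells 0.08 became -0.05 by clusters, -0.02 thinned and without mixed cells, -0.21 with TMM, -0.20 with DESeq2, 0.0012 with equal weight and 0.22 with own oligonucleotide, so no direction is read there. H2-Ab1 in B cells was -0.01, -0.12, -0.17, -0.15 and -0.01 by clusters, thinned, with TMM, with DESeq2 and without mixed cells. H2-Eb1 there was -0.20, -0.09, -0.03, -0.02 and -0.22 in that order, and -0.07 with the stricter gate and with equal weight. Cd74 there was -0.16 with TMM and -0.15 with DESeq2. H2-DMb1 there ran from -0.65 to 0.75 and H2-DMb2 from -0.65 to 0.12. H2-Eb1 in Cd207+ Epcam+ cells was 0.03 thinned, and Ciita ran from -0.67 to -0.22. Of 487 values of single members, 382 moved by less than their interval, 84 moved further in the same direction and 21 reversed. With no minimum of UMIs, 22.1% of all genes were lower past the fold in macrophages, against 9.49%. No paired analysis was possible because each genotype has 1 library. Classes of under 50 cells and members under 50 UMIs limit what counting can show.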
